A study of Homo sapiens with 12 samples.

Results

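The miRNAs described here carry the names of 2 imprinted human miRNA clusters, the 14q32 cluster within the DLK1-DIO3 domain on chromosome 14 and the primate-specific cluster on chromosome 19. Members were chosen by name alone, from the miRNA numbers that belong to each cluster. The rule found 12 of the 1204 miRNAs in the count table, 12 of them through a 14q32 number and 0 through a chromosome 19 number. The chromosome 19 cluster was therefore not analysed here. Of the 12, 11 have a mature sequence that lies at 14q32. The other one, hsa-miR-544b, carries a 14q32 number but its hairpin lies on chromosome 3, so the label does not hold for it and it is described separately. In the RefSeq miRNA table, 89 mature names fall under the 14q32 numbers and 65 under the chromosome 19 numbers, and those with no row in the count table were not analysed here.

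Cells of MV4-11 and Molm-14 were sequenced, human acute myeloid leukemia (AML) cell lines that both carry an internal tandem duplication of FLT3. Each line was transduced either with a CRISPR/Cas9 construct holding GFP and a single guide against MPC1 (MPC1 KO) or with the nontargeting Empty Vector (EV), and 3 small RNA libraries were made for each of the 4 groups. MPC1 encodes a subunit of the carrier that brings pyruvate into mitochondria, and the comparison asks how miRNA levels differ once that entry is reduced. Small RNA sequencing does not measure the MPC1 mRNA, and the deletion was not checked here. Whether the libraries within a group were made from separate cultures is not stated, and p-values then measure only the spread between these libraries. In bulk RNA, fewer cells that make a miRNA and less of it per cell cannot be told apart.

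At 14q32, the protein-coding genes DLK1, RTL1 and DIO3 are expressed from the paternal chromosome, whereas the long noncoding RNAs MEG3, MEG8 and MEG9 and the miRNAs embedded along them are expressed from the maternal chromosome. The miRNAs are thought to be cut out of long shared transcripts, and they are best known from placenta, embryo and brain. In blood, high levels of these miRNAs are a known feature of acute promyelocytic leukemia, a subtype that neither cell line represents. The chromosome 19 cluster is expressed from the paternal chromosome and is largely restricted to placenta and to undifferentiated cells.

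The 11 mature sequences at 14q32 are shown because the counts rest on telling them apart. They are given 5′ to 3′ from RefSeq on GRCh38.p14, in order along the plus strand of chromosome 14, with the seed (bases 2 to 8, the stretch that pairs with target mRNAs) in capitals.
hsa-miR-493-5p: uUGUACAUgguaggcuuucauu
hsa-miR-127-3p: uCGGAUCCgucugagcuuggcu
hsa-miR-379-5p: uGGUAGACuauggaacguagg
hsa-miR-411-5p: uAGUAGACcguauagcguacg
hsa-miR-494-3p: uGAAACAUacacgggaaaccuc
hsa-miR-543: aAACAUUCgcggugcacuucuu
hsa-miR-495-3p: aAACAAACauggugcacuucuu
hsa-miR-381-3p: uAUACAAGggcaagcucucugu
hsa-miR-409-3p: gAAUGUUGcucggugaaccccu
hsa-miR-412-5p: uGGUCGACcaguuggaaaguaau
hsa-miR-369-3p: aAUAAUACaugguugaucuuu

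No seed is shared among these 11, so they form no seed family of their own. Outside the table, hsa-miR-379-5p shares its seed with hsa-miR-3529-5p, hsa-miR-495-3p with hsa-miR-5688 and hsa-miR-381-3p with hsa-miR-300. Some members are nonetheless close in sequence. hsa-miR-543 and hsa-miR-495-3p are identical at 18 of 22 positions, and hsa-miR-379-5p and hsa-miR-411-5p at 14 of 21. The handling of reads that match several miRNAs is not given in the sources used here, so counts between such near copies are less certain. Each mature sequence matched the genome exactly at 1 place.

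The positions fall into 2 stretches. hsa-miR-493-5p (chr14:100869075-100869096) and hsa-miR-127-3p (chr14:100883035-100883056) lie in introns of MIR493HG, and of these hsa-miR-127-3p also lies opposite to an exon of RTL1. The other 9 belong to the group from miR-379 to miR-656. hsa-miR-379-5p (chr14:101022071-101022091), hsa-miR-411-5p (chr14:101023340-101023360), hsa-miR-494-3p (chr14:101029681-101029702), hsa-miR-543 (chr14:101032033-101032054) and hsa-miR-495-3p (chr14:101033804-101033825) lie in introns of MEG8. hsa-miR-381-3p (chr14:101045968-101045989), hsa-miR-409-3p (chr14:101065346-101065367), hsa-miR-412-5p (chr14:101065465-101065487) and hsa-miR-369-3p (chr14:101065641-101065661) lie in introns of MEG9. All are on the strand of their host transcript.

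Library totals ranged from 3870104 to 8683456 counts with a median of 5107201, and 18 of the 1204 miRNAs had no count in any library. Levels are given as raw counts and as counts-per-million (CPM), scaled with edgeR's TMM factors, which lay between 0.940 and 1.08. A single count was worth between 0.122 and 0.267 CPM depending on the library. Pairs of libraries within a group differed by more than sampling noise, with a chi-square per degree of freedom between 11.8 and 155. Of the myeloid and blood markers, 5 of 5 were in the table and summed to between 66214 and 106018 CPM. Among them, hsa-miR-150-5p was at only 1.41 to 4.0 CPM. The red cell markers summed to between 3.19 and 11.7 CPM, liver miR-122-5p to between 4.46 and 9.58 CPM and the epithelial markers to between 105 and 261 CPM, and the markers of pluripotent cells were not analysed here. The mesenchymal markers, 3 of 4 in the table, summed to between 615 and 717 CPM in MV4-11 EV, between 509 and 590 in MV4-11 MPC1 KO, from 182 to 205 in Molm-14 EV and from 101 to 107 in Molm-14 MPC1 KO.

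The 14q32 miRNAs were at the lower end of what these libraries measured. Together the 11 took 273 counts over all 12 libraries, 0.000439% of all counts. Of the 132 single values, 38 were 0, 105 were at most 3 and the highest was 12. Their median level was 0.215 CPM, compared to 1.81 CPM for all 1204 miRNAs, and they ranked between 673 and 1140 by mean level. Ratios and intervals below cover counting error only, and reads without molecular identifiers are not independent molecules.

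**Figure D1:**
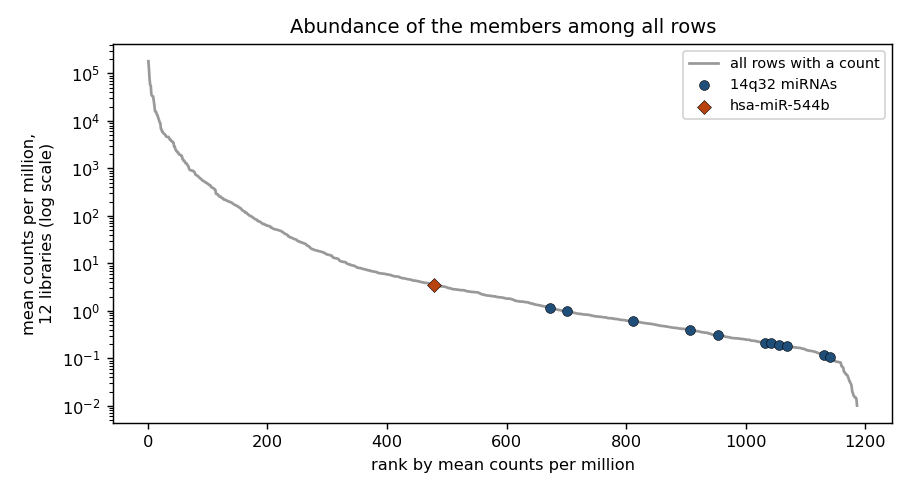
Mean level of each miRNA over the 12 libraries (y axis, CPM on a log scale) against its rank (x axis), with all miRNAs that had a count as a gray line, the 11 14q32 miRNAs as circles and hsa-miR-544b as a diamond. The circles lie between ranks 673 and 1140 and the diamond at rank 479.

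hsa-miR-127-3p, which lies opposite to RTL1 and pairs perfectly with its transcript, was the most abundant member with a mean of 1.16 CPM. Its counts were 5, 12 and 4 in the MV4-11 EV libraries, 6, 6 and 8 in MV4-11 MPC1 KO, 2, 4 and 8 in Molm-14 EV, and 6, 4 and 4 in Molm-14 MPC1 KO. The 4 groups overlapped, and the highest value was that of MV4-11 EV replicate 2. The group means were 1.43 ± 1.13, 1.19 ± 0.206, 1.09 ± 0.701 and 0.917 ± 0.173 CPM in the same order (SD, n = 3 each).

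hsa-miR-369-3p, known for its action on the AU-rich element of the TNF mRNA in growth-arrested cells, was next at 0.980 CPM. Its counts were 3, 6 and 3 in MV4-11 EV, 3, 10 and 9 in MV4-11 MPC1 KO, 7, 1 and 2 in Molm-14 EV, and 5, 7 and 5 in Molm-14 MPC1 KO. The MPC1 KO and EV libraries overlapped in both lines. hsa-miR-381-3p, the first of the members along MEG9, had a mean of 0.604 CPM. Its counts were 4, 6 and 2 in MV4-11 EV, 2, 6 and 3 in MV4-11 MPC1 KO, 1, 3 and 3 in Molm-14 EV, and 1, 5 and 1 in Molm-14 MPC1 KO. These 3 miRNAs were the only members counted in all 12 libraries, and they held 61.2% of the 14q32 counts. hsa-miR-127-3p and hsa-miR-369-3p alone held 47.6%.

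hsa-miR-411-5p, the neighbor of hsa-miR-379-5p, averaged 0.396 CPM and was counted in 9 libraries. Its counts were 2, 3 and 5 in MV4-11 EV, 3, 2 and 1 in MV4-11 MPC1 KO, 0, 2 and 0 in Molm-14 EV, and 3, 0 and 2 in Molm-14 MPC1 KO. hsa-miR-409-3p averaged 0.308 CPM, also in 9 libraries, and reached 4 counts in 2 of the MV4-11 MPC1 KO libraries. Neither miRNA separated the groups in any comparison.

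hsa-miR-495-3p (0.215 CPM) and hsa-miR-493-5p (0.208 CPM) had a count in 8 libraries each, and hsa-miR-494-3p (0.194 CPM) and hsa-miR-543 (0.184 CPM) in 7 each. hsa-miR-379-5p, the first miRNA of the long group, had 7 counts in all, over 6 libraries (0.12 CPM). hsa-miR-412-5p, the least abundant member at 0.106 CPM and named to complete the account, had 7 counts over 4 libraries. Each neighboring pair in this order had overlapping 95% Poisson intervals, so the order is not resolved step by step. Over all libraries pooled, hsa-miR-127-3p was at 1.11 CPM with an interval of 0.865 to 1.41, and hsa-miR-381-3p at 0.596 CPM with an interval of 0.420 to 0.822, so these 2 did not overlap. In the same pool, the level of hsa-miR-495-3p was 0.226 CPM with a 95% Poisson interval of 0.123 to 0.378, and that of hsa-miR-379-5p was 0.113 CPM with an interval of 0.0453 to 0.232.

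**Figure D2:**
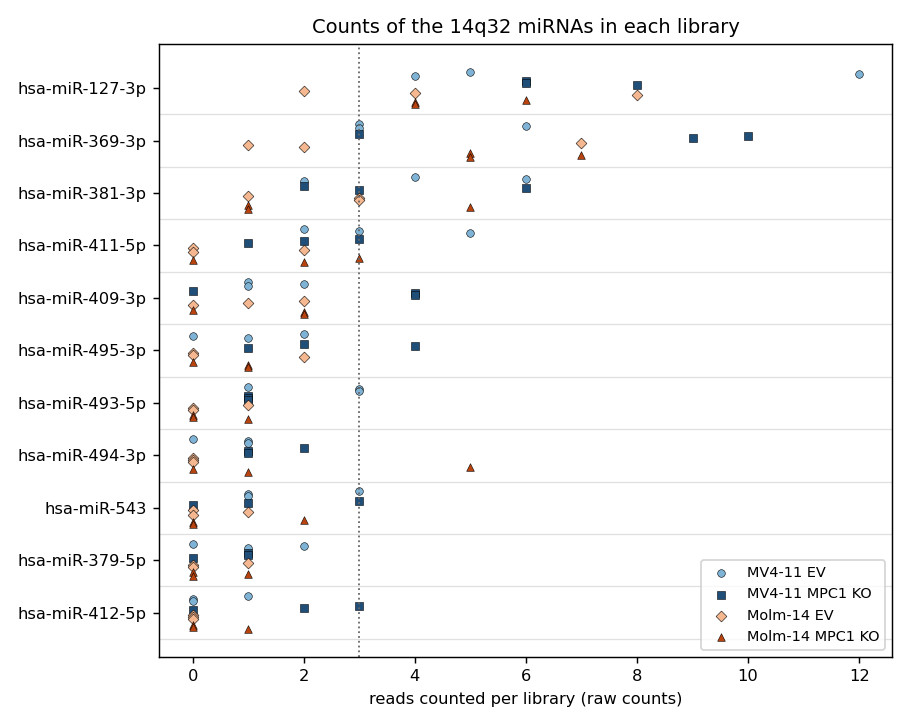
Raw counts (x axis) of each 14q32 miRNA (y axis, ordered by mean level) in each of the 12 libraries, with 1 symbol per library and 1 shape and color per group, and a dotted line at 3 counts. All values lie at or below 12 counts, and the groups overlap in each comparison for each of the 11 miRNAs.

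The next comparison was MPC1 KO against EV within each line. The 11 miRNAs had too few counts to enter edgeR's quasi-likelihood test, since none passed the filter on low counts that kept 659 miRNAs. Among those 659, 3.03% differed in MV4-11 and 6.83% in Molm-14 at an adjusted p under 0.05 (Benjamini-Hochberg). With the filter removed, 1186 miRNAs were tested, and 0 of the 11 passed the threshold in either line, compared to 2.19% of all miRNAs tested in MV4-11 and 4.81% in Molm-14. At an unadjusted p under 0.05, edgeR without the filter gave 0 of 11 in MV4-11 and 1 of 11 in Molm-14, against 9.61% and 12.9% of all tested. DESeq2 called 0 of the 11 in both lines, against 5.97% of the miRNAs to which it gave an adjusted p in MV4-11 and 6.41% in Molm-14. Of the 11, DESeq2 gave an adjusted p to 0 in MV4-11 and to 2 in Molm-14.

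That single miRNA was hsa-miR-494-3p in Molm-14, with an unadjusted p of 0.0246 and an adjusted p of 0.239 in edgeR's test without the filter. It had 0 counts in each of the 3 EV libraries and 5, 0 and 1 in the MPC1 KO libraries. Of its 6 MPC1 KO counts, 5 thus stood in replicate 1, and 1 MPC1 KO library was at 0 like the EV libraries. Set against a floor of 3 counts over the EV group, the MPC1 KO level was 1.73-fold higher. This fold is not a lower limit, since the exact interval of the ratio began at 1.02. In MV4-11, hsa-miR-494-3p had 0, 1 and 1 counts in EV and 2, 1 and 1 in MPC1 KO.

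Ratios of pooled levels, taken where at least 1 of the groups held more than 3 counts, ran in both directions. In MV4-11, 10 of the 11 miRNAs had a ratio, with 5 above 1 and 5 below, where 51.3% of all miRNAs with such a ratio were above 1. They ran from 0.429 for hsa-miR-493-5p to 5.0 for hsa-miR-412-5p, with a median of 1.39. No floor was put under groups with 1 to 3 counts, so the highest ratios rest on very small denominators. The ratio of hsa-miR-412-5p rested on 5 counts against 1 and had a 95% interval of 0.56 to 237. The ratio of hsa-miR-369-3p was 1.84 with a 95% interval of 0.870 to 4.07, and that of hsa-miR-127-3p was 0.953 with an interval of 0.490 to 1.85. In Molm-14, 5 miRNAs were at or under 3 counts in both groups and 5 had a ratio, with 3 above 1 and 2 below, where 46.1% of all such ratios were above 1. These ran from 0.864 to 2.16 with a median of 1.15, and that of hsa-miR-369-3p was 1.47 with an interval of 0.635 to 3.59. The remaining one, hsa-miR-494-3p, had the fold over the floor given above, and its exact interval began at 1.02. Of the 10 ratios in MV4-11 and the 5 in Molm-14, 0 had an interval that left out 1. For 0 of the 11 miRNAs did the libraries of MPC1 KO and EV lie apart, where this held for 13.7% of the 1186 miRNAs with a count in MV4-11 and for 18.5% in Molm-14. At this depth, changes smaller than these intervals were not detectable.

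**Figure D3:**
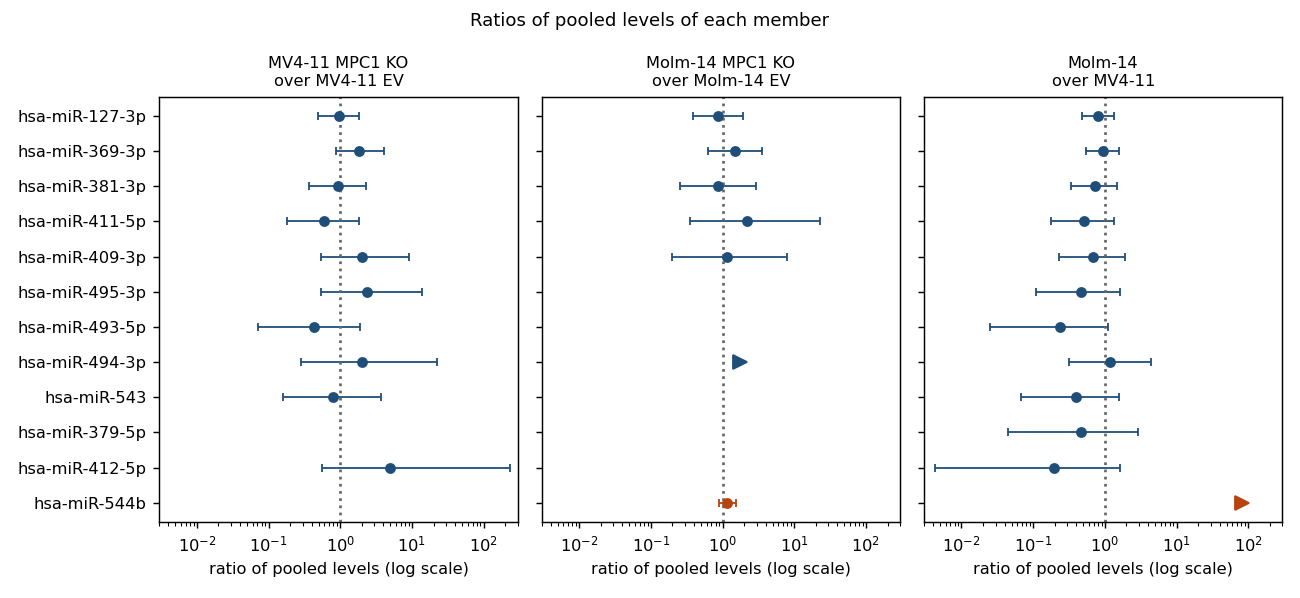
Ratio of pooled levels (x axis, log scale) for each member (y axis) in 3 comparisons. Points are ratios, bars are exact 95% intervals of counting error and triangles are folds against a floor of 3 counts. Each bar of a 14q32 miRNA crosses the dotted line at 1. Against the floor, hsa-miR-494-3p in Molm-14 has a fold of 1.73, and hsa-miR-544b in the comparison of lines has a fold of 82.2.

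The sum over the 11 miRNAs was then followed as a description, with no test. In MV4-11 it was 2.68, 8.16 and 5.27 CPM in the EV libraries and 5.05, 6.36 and 4.94 CPM in the MPC1 KO libraries. The MPC1 KO libraries all lay within the range of the EV libraries, which spread widely. The means were 5.37 ± 2.74 and 5.45 ± 0.786 CPM (SD, n = 3 each), a log2 ratio of 0.02, and the pooled counts of 80 and 92 gave a ratio of 1.15 with an interval of 0.844 to 1.57.

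In Molm-14 the sum was 2.79, 3.20 and 3.37 CPM in the EV libraries and 3.96, 3.67 and 4.22 CPM in the MPC1 KO libraries. Here the 3 MPC1 KO sums lay above the 3 EV sums. Among single miRNAs, the libraries of the groups lay apart in Molm-14, in either direction, for 18.5% of the 1186 with a count. The means were 3.12 ± 0.298 and 3.95 ± 0.276 CPM (SD, n = 3 each), a 1.26-fold difference or 0.34 on the log2 scale. The pooled counts were 41 and 60, and their ratio of 1.26 had an interval of 0.836 to 1.93, so the difference between the pooled levels was not larger than counting error. Without hsa-miR-127-3p, the most abundant member, the log2 ratio was 0.57.

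**Figure D4:**
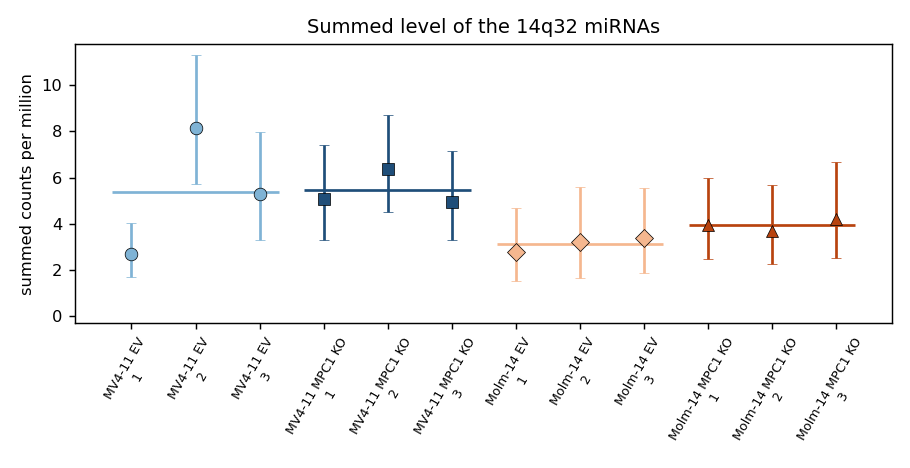
Summed level of the 11 14q32 miRNAs (y axis, CPM) in each library (x axis), with 95% Poisson intervals as bars and group means as horizontal lines. The MV4-11 EV libraries span 2.68 to 8.16 CPM, and in Molm-14 the MPC1 KO libraries (3.67 to 4.22) lie above the EV libraries (2.79 to 3.37) with overlapping intervals.

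By position, the 2 miRNAs along MIR493HG had 28, 23, 15 and 15 pooled counts in MV4-11 EV, MV4-11 MPC1 KO, Molm-14 EV and Molm-14 MPC1 KO. This corresponded to 1.67, 1.37, 1.14 and 0.982 CPM. The 9 miRNAs of the long group had 52, 69, 26 and 45 counts, or 3.09, 4.11, 1.97 and 2.95 CPM. In each line and for each stretch the intervals of MPC1 KO and EV overlapped. For the long group they were 2.31 to 4.06 and 3.20 to 5.20 CPM in MV4-11 and 1.29 to 2.89 and 2.15 to 3.94 CPM in Molm-14.

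Between the lines, the 14q32 miRNAs were read at a lower pooled level in Molm-14. Summed over both genotypes they had 172 counts in MV4-11, or 5.12 CPM with an interval of 4.38 to 5.94, and 101 counts in Molm-14, or 3.55 CPM with an interval of 2.89 to 4.31. The pooled ratio of Molm-14 to MV4-11 was 0.693 with an interval of 0.536 to 0.891. Like the other pooled intervals, it covers counting error only and leaves out the spread between libraries. The library sums of the lines overlapped, because MV4-11 EV replicate 1 at 2.68 CPM lay below all Molm-14 libraries. In the EV cells the means of 3.12 and 5.37 CPM gave a log2 ratio of -0.78, and the pooled ratio was 0.652 with an interval of 0.436 to 0.962. The library SDs of both groups combined to 0.82 on the log2 scale, which is a spread between libraries and not the error of the log2 ratio. Without MV4-11 EV replicate 2, the highest library, that log2 ratio was -0.35. In the MPC1 KO cells the sums did not overlap, and the pooled ratio was 0.717 with an interval of 0.509 to 1.003. The share of all miRNAs whose libraries lay apart in these cells was not taken. By edgeR's test with the filter, 62.4% of the 659 miRNAs differed between the lines in these cells.

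For 0 of the 11 did the libraries of the lines lie apart, where this held for 30.7% of the 1186 miRNAs with a count. The Molm-14 to MV4-11 ratio was below 1 for 10 of the 11 and for 51.9% of all miRNAs with such a ratio. It ran from 0.197 for hsa-miR-412-5p to 1.18 for hsa-miR-494-3p, the one above 1, with a median of 0.516. Of these intervals, 0 left out 1. hsa-miR-493-5p had 10 counts over the MV4-11 libraries, at least 1 in each, and 2 over the Molm-14 libraries, a ratio of 0.236 with an interval of 0.0251 to 1.11. The test showed how common a line difference was in these data. Of the 659 miRNAs that passed the filter, 61.9% differed between the EV controls and 62.4% between the MPC1 KO cells, and without the filter 40.6% and 38.7% did. Without the filter, edgeR called 0 of the 11 in either comparison, with 0 at an unadjusted p under 0.05 compared to 47.2% and 44.4% of all tested. DESeq2 also called 0, compared to 38.4% and 39.9% of the miRNAs with an adjusted p, of which 5 of the 11 had one in each comparison. With 7 to 69 counts each over the 12 libraries, the 11 gave these tests little to call. These results therefore do not set the 11 apart from other miRNAs. The sum of the mesenchymal markers and that of the epithelial markers (105 to 137 CPM in Molm-14, 198 to 261 CPM in MV4-11) were also lower in all Molm-14 libraries. Each rested mostly on 1 miRNA, hsa-miR-143-3p (95.6 to 688 CPM) and hsa-miR-200c-3p (104 to 256 CPM). The other mesenchymal markers reached at most 48.9 CPM and the other epithelial markers at most 4.94 CPM. The part of these markers in the 14q32 sum was not tested. Within Molm-14 the mesenchymal sum was lower in MPC1 KO than in EV. The 14q32 sum was higher in MPC1 KO, though the pooled levels differed by no more than counting error, and a link between these sums was not tested.

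A list of 6 further miRNAs in or next to the cluster, which the rule does not include, had 5 mature products in the table, from miR-151b, miR-342 and miR-345, and all 5 passed the filter. In MPC1 KO against EV, 0 of the 5 changed in either line by edgeR's test. Their median log2 fold change was -0.12 in MV4-11 and -0.07 in Molm-14, compared to -0.0035 and -0.013 over all 659. Between the EV controls, 2 of the 5 were higher in Molm-14 (33.5% of all 659 were) and 2 were lower (28.4% of all 659 were). hsa-miR-342-3p and hsa-miR-342-5p were higher, by 1.23 ± 0.18 and 0.74 ± 0.18 (log2 fold change ± SE). hsa-miR-345-5p and hsa-miR-345-3p were lower, with log2 fold changes of -2.10 ± 0.11 and -1.94 ± 0.21. The median over the list was 0.21, compared to 0.06 over all 659. hsa-miR-345-5p averaged 1957 CPM and hsa-miR-342-3p 726 CPM, far above the 14q32 members. Of the 5 miRNAs listed next to the chromosome 19 cluster, only hsa-miR-371b-5p was in the table, with 18 counts in all, and it did not pass the filter.

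hsa-miR-544b stood apart from the other members in both position and level. Its hairpin lies at chr3:124732439-124732516 on the plus strand, in an intron of UMPS, the gene of the enzyme that makes uridine monophosphate, and on the same strand. All 7 UMPS transcripts that span it have it in an intron. The name groups it with hsa-miR-544a of the 14q32 cluster, which had no row in the table and was not analysed here. The sequences of both are shown because the name alone would place hsa-miR-544b at 14q32. In the mature sequences capitals mark the seed, and in the hairpins they mark the mature sequence.
hsa-miR-544a: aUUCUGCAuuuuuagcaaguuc
hsa-miR-544b: aCCUGAGGuugugcauuucuaa
MIR544A hairpin: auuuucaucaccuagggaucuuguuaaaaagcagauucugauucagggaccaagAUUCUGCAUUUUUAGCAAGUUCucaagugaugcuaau
MIR544B hairpin: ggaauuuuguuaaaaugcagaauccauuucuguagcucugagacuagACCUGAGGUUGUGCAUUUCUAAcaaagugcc
The seeds differ, and the longest run the mature sequences share is 7 bases, starting at base 5 of hsa-miR-544a and at base 12 of hsa-miR-544b. The hairpins align over 72 columns, of which 48 (66.7%) are identical.

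hsa-miR-544b was counted in Molm-14 and not in MV4-11. It had 0 counts in each of the 6 MV4-11 libraries. In Molm-14 it had 38, 15 and 36 counts in the EV libraries, or 7.59, 4.0 and 8.10 CPM, and 45, 49 and 26 counts in the MPC1 KO libraries, or 8.09, 8.99 and 6.10 CPM. Its lowest Molm-14 value lay well above what a count of 0 allows in MV4-11. The upper Poisson limit for 0 counts over an MV4-11 group was 0.22 CPM, and a floor of 3 counts was 0.179 CPM.

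**Figure D5:**
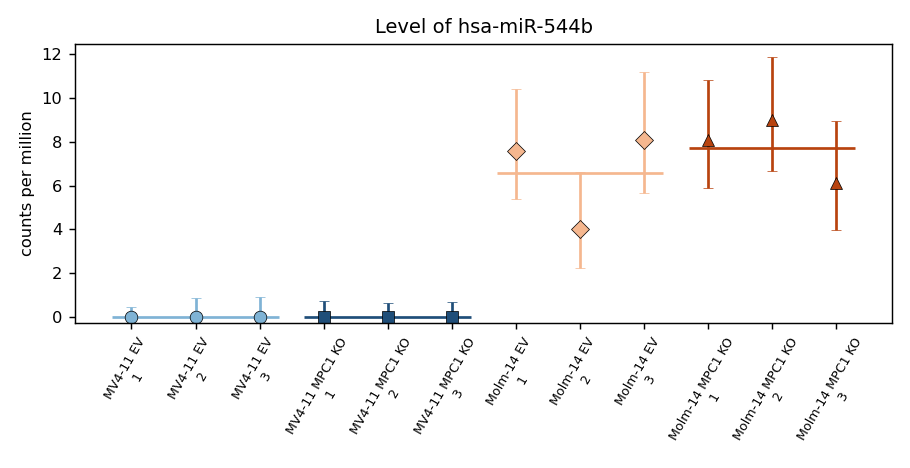
Level of hsa-miR-544b (y axis, CPM) in each library (x axis), with 95% Poisson intervals as bars and group means as horizontal lines. The 6 MV4-11 libraries are at 0, and the Molm-14 libraries lie between 4.0 and 8.99 CPM with EV and MPC1 KO overlapping.

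In the EV controls hsa-miR-544b was 37.8-fold higher in Molm-14 than in MV4-11, against a floor of 3 counts over the MV4-11 group. In the MPC1 KO cells it was 43.96-fold higher, against the same floor. These folds are not lower limits, since the exact intervals of the ratios began at 30.1 and 35.2. The adjusted p in edgeR's quasi-likelihood test was 1.26e-08 and 4.26e-09. It was the 1 member of the 12 that passed the filter, and it did so through the Molm-14 libraries alone, so that a difference between the lines was fixed by its passing. In these comparisons 33.5% and 32.9% of the 659 were called higher in Molm-14. Of the 1204 miRNAs, 48 (3.99%) were at 0 in all MV4-11 libraries. With at least 10 counts in each Molm-14 library as well, 5 (0.415%) remained, and 2 (0.166%) showed the reverse. That pattern is the one hsa-miR-544b itself shows, so these shares are a description. hsa-miR-544b was the fourth of these 5 by mean level. It averaged 3.57 CPM over the 12 libraries.

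Within Molm-14, hsa-miR-544b did not pass the test between MPC1 KO and EV. The means were 6.56 ± 2.23 CPM in EV and 7.73 ± 1.48 CPM in MPC1 KO (SD, n = 3 each), and the libraries overlapped, with MPC1 KO replicate 3 below 2 of the EV libraries. The log2 fold change was 0.23 ± 0.29 (SE) with an adjusted p of 0.757 in edgeR's test. The 95% interval ran from a fold of 0.785 to 1.74, so a rise or fall within it was not detectable. Leaving out each library in turn gave log2 fold changes between 0.02 and 0.40. In MV4-11 both groups were at 0, so no fold could be given, and the difference between the MPC1 KO effects of the lines could not be tested for this miRNA. For the 11 miRNAs at 14q32, edgeR without the filter called 0 in that difference, with 0 at an unadjusted p under 0.05, compared to 3.46% and 12.7% of all tested. DESeq2 called 0 as well, compared to 5.65% of the miRNAs with an adjusted p, and with the filter edgeR called 6.68% of the 659.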

How the data were processed

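Raw counts, the whole number of reads on each mature miRNA in each of the 12 libraries, were deposited by the authors without normalization. The submitters' processing notes name STAR 2.5.2, featureCounts 1.5.1 and GRCh38, and the NEBNext small RNA kit was used on miRNeasy RNA. Libraries were grouped by cell line and genotype from their titles and labels.

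From the counts, edgeR 4.0.16 in R 4.3.3 was run on all 12 libraries with filterByExpr (minimum count 10), TMM factors and the robust setting of glmQLFit on 4 groups, with Benjamini-Hochberg adjustment over all miRNAs tested and a threshold of 0.05. The fit was tested on simulated data. A fold against a group with at most 3 counts used 3 counts as the floor where the group had 0. Pooled counts carry exact Poisson intervals, and ratios exact conditional intervals.

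The members and lists were chosen with earlier results of these data known. Named with values were the 10 members of highest mean level per cluster and every member past the threshold, and hsa-miR-412-5p was named beyond this rule. Alternatives were other scalings, other filters, DESeq2 1.42.0, fits within a line or genotype, replicate number as a block and leaving out each library. Sequences and positions came from RefSeq (GRCh38.p14), and host transcripts from GENCODE release 44.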

Additional observations from a re-analysis of the deposited data

How the results depend on the processing

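The number of members called was 0 for MPC1 KO against EV in Molm-14 and 1 for each comparison of the lines under other scalings, other filters, DESeq2, fits within a line or genotype and leaving out each library. In MV4-11 and for the difference of the effects it was 0 wherever a fit was run, which says nothing of stability, since with the filter hsa-miR-544b was the member tested and it had no count in MV4-11. The fit within MV4-11 tested no member, and a fit within a line gives no difference of effects. Between the lines the 1 member called was hsa-miR-544b. It had no count in MV4-11 and passed the filter through Molm-14 alone, so the unchanged number says nothing of stability there either. With the filter it was also the only member tested in Molm-14. Replicate numbers did not pair the libraries, since the 6 same-numbered pairs correlated between -0.13 and 0.12, with 1 above 0.1. With replicate number as a block, the counts were 0, 0, 0, 1 and 1, and hsa-miR-544b in Molm-14 had a log2 fold change of 0.24 (edgeR adjusted p = 0.745). The log2 fold change of hsa-miR-544b in Molm-14 lay between 0.02 and 0.40 when libraries were left out, with adjusted p between 0.628 and 0.988, and between 0.21 and 0.29 otherwise.

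The log2 ratio of the 14q32 sum in Molm-14, 0.34, was 0.57 without hsa-miR-127-3p, which had equal counts in both groups, and between 0.26 and 0.40 when libraries were left out. In MV4-11 it lay between -0.30 and 0.46 when libraries were left out, so its direction rested on single libraries. Without MV4-11 EV replicate 2 it was 0.46, and without replicate 1 it was -0.30. Between the EV controls it lay between -1.10 and -0.35 when libraries were left out. An alternative chosen after seeing the data added hsa-miR-544b to the sum, which turned that log2 ratio from -0.78 to 0.85, since this miRNA was at 0 in MV4-11. The chromosome 19 sums had no value. Depth limits the 14q32 results, because 105 of their 132 values were at most 3 counts.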

Other observations

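Among miRNAs outside the rule, looked at after the values of hsa-miR-544b had been seen, 7 of the 1204 were at 0 in all MV4-11 libraries with at least 3 counts in each Molm-14 library, and 4 showed the reverse. Of these 7, 3 lie on chromosome 3, which holds 51 of the 1204 miRNAs (4.24%). hsa-miR-544b, which prompted the look, is one, hsa-miR-5002-5p lies 0.600 Mb before it with 33 counts over the Molm-14 libraries, and hsa-miR-5682 lies 3.68 Mb before it with 52 counts. Within 10 Mb of hsa-miR-544b there were 10 other miRNAs in the table, of which 2 were at 0 in MV4-11, compared to 48 of all 1204 (3.99%). Others in that window were counted in both lines. hsa-miR-7110-3p, 1.57 Mb before hsa-miR-544b, had 14 counts in MV4-11 and 4 in Molm-14, and hsa-miR-7976, 2.85 Mb after it, had 2638 and 1291.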
